A study of Homo sapiens with 4 samples.

Results

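Chromosome 19, the human autosome with the most protein-coding genes per megabase, carried 1479 of the 42462 CTCF peaks called in MDA-MB-435 melanoma cells. These are all peaks that the peak list of asynchronous replicate 1 places on that chromosome. ChIP-seq, the sequencing of DNA that an antibody pulls down with a protein, was used to map CTCF in this established human cell line. The cells were unsynchronised, no treatment is given for them, and a rabbit antibody against CTCF was used. The series has 4 samples: 2 replicates of these cells, and 2 of cells arrested in mitosis by thymidine and nocodazole, immunoprecipitated with an antibody against phosphorylated CTCF (pT431). Only the list of asynchronous replicate 1 was used here, so no value below has a replicate check, no test between groups was possible and all intervals cover counting error only. The identity of the cells could not be checked, since a peak list holds no expression. That library had 19210460 tags.

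CTCF is a DNA-binding protein with a row of zinc fingers that recognises a long, directional sequence. It marks insulators and the anchors of chromatin loops, where it halts the cohesin ring, and it also binds many promoters. Chromosome 19 is known for its density of genes, for its GC-rich sequence and for large tandem families, above all the KRAB zinc finger genes, whose proteins silence transposable elements.

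Sequences under promoter peaks are shown first, as examples of the DNA recovered on this chromosome. A core of the CTCF motif was searched for on both strands: CCA, any 2 bases, AG, any 2 bases and GGC. The 6 highest-scoring promoter peaks of chromosome 19 with that core are FLT3LG, EHD2, DMKN, ODAD3, MKNK2 and ZNF587B. Each sequence below runs 5′ to 3′ on the strand of its gene and ends before or at the transcription start, with the core in capitals. Where the core lies on the other strand, the capitals show its reverse complement. Sequences are RefSeq promoter windows of GRCh38.p14.
FLT3LG, chr19:49474106-49474205, plus strand: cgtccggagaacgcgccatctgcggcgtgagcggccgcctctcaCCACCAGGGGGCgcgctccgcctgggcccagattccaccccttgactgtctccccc
EHD2, chr19:47713268-47713367, plus strand: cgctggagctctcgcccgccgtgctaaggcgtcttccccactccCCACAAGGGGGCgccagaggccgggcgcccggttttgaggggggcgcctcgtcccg
DMKN, chr19:35510510-35510609, minus strand: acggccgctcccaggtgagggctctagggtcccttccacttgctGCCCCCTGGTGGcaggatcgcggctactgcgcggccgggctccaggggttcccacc
ODAD3, chr19:11435227-11435326, minus strand: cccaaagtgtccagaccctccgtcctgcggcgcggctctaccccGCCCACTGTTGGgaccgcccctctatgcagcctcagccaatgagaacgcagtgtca
MKNK2, chr19:2051306-2051405, minus strand: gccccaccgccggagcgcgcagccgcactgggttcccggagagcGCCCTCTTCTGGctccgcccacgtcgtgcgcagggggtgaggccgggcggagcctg
ZNF587B, chr19:57830233-57830298, plus strand: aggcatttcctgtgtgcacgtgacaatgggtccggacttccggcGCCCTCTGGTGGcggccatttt
Stronger promoter peaks had no such core in their window. The 2 highest-scoring of these with a centre between 20 and 220 bases before the start are given for comparison, as the bases around their centres. The FAM98C peak, with 123.9 normalised tags and a higher score than both, is centred after the start and is not shown.
PLEKHJ1, chr19:2236349-2236448, minus strand: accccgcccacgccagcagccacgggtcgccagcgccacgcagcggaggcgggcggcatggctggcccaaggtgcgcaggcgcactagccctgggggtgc
IGFL4, chr19:46077691-46077790, minus strand: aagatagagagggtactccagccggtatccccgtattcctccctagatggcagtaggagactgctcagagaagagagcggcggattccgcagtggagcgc

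Peak height is given as normalised tags, the tags in a peak scaled to a library of 10000000. The FLT3LG promoter, of a gene for a haematopoietic growth factor, held 113.2 normalised tags (95% Poisson interval 98.4 to 129.0), with the motif core 15 bp from the peak centre. EHD2, which encodes an ATPase of caveolae, held 101.2 (87.3 to 116.2) with the core 16 bp from the centre. DMKN, the gene of the skin protein dermokine, held 77.6 (65.6 to 91.1) with the core 24 bp away. In these 3 promoters the core thus sat almost at the middle of the peak. ODAD3, needed for the dynein arms of cilia, held 64.0 normalised tags but its core lay 144 bp from the centre. MKNK2, whose kinase phosphorylates a translation initiation factor, held 40.6 with the core 34 bp away, and ZNF587B held 18 with the core 17 bp away. The PLEKHJ1 and IGFL4 peaks, without the core in their promoter window, held 130.9 (115.0 to 147.9) and 120.8 (105.7 to 137.3), more than any of these 6. Both peaks reach beyond their window, and near matches to the core were not counted. A motif in these peaks is therefore not excluded.

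Over the whole chromosome, 148 of 1548 promoter windows of coding genes overlapped a peak (9.56%, Clopper-Pearson 8.14 to 11.1), against 14.1% (13.65 to 14.6) on the 20 other autosomes with promoter entries. A window runs from 250 bases before to 50 after a start site, and 1185 of the 1410 coding genes had at least 1. The 148 windows with a peak belong to 138 genes and share 127 peaks. Windows are thus not independent, and intervals of window shares may be too narrow. The core was found in 9 of these 148 (6.08%, 2.82 to 11.2) and in 38 of the 1400 windows without a peak (2.71%, 1.93 to 3.71), so the intervals overlap. On the 20 other autosomes, with far more windows, it was found in 6.96% (6.04 to 7.97) with a peak and 1.78% (1.58 to 1.99) without. Those intervals do not overlap. A looser core that also leaves the third base free was found in 29.1% (21.9 to 37.1) of windows with a peak and 11.3% (9.68 to 13.1) of those without, and here the intervals do not overlap. Of all promoter windows of autosomal coding genes, 2.55% held the stricter core and 12.5% the looser one. The median GC content was 66.0% in chromosome 19 windows with a peak and 63.0% in those without, and its part in these shares was not tested. A core match is a description of the letters and not proof of a bound site.

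Chromosome 19 had 26.7 CTCF peaks per Mb (25.4 to 28.1), the highest density of the 22 autosomes. The next were chromosome 17 with 22.6 and chromosome 22 with 20.3, and the lowest was chromosome 21 with 11.05. It holds 2.05% of the autosomal length counted here, 3.58% of autosomal peaks and 7.43% of autosomal protein-coding genes. Per coding gene it was therefore the poorest: 1.05 peaks per gene (0.996 to 1.10), against 1.56 on chromosome 16, the next lowest, and 3.41 on chromosome 18, the highest. Lengths run from the first to the last gene or peak and leave out stretches of at least 1 Mb with neither. No p is given for these ranks, since chromosomes of 1 library are not replicates.

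**Figure D1:**
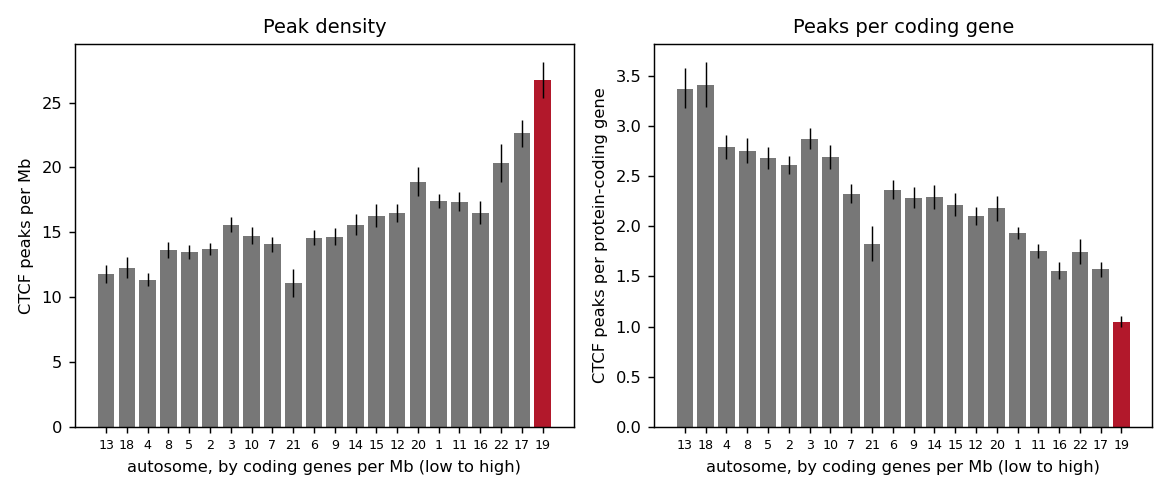
CTCF peaks per Mb (left) and per protein-coding gene (right) on each of 22 autosomes, ordered from few to many coding genes per Mb, with exact Poisson 95% intervals. Chromosome 19, in red, is highest on the left at 26.7 peaks per Mb and lowest on the right at 1.05 peaks per gene.

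Bins with 20 or more coding genes held similar mean numbers of peaks on chromosome 19 and elsewhere. In 1 Mb bins with 30 or more coding genes, the mean was 34.1 peaks over 22 bins of chromosome 19 and 35.0 over 63 bins of the other autosomes. In bins with 20 to 29 genes it was 28.7 (18 bins) and 27.6 (108 bins). With 10 to 19 genes it was 18.7 (7 bins) and 22.3 (400 bins). The 4 chromosome 19 bins with 5 to 9 genes had 0, 0, 0 and 25 peaks, a mean of 6.25 against 17.3 over 732 bins. Those 3 bins without peaks all lay in the zinc finger gene region described below. Of its 54 bins, 24 (44.4%) held 30 or more peaks, against 6.36% of 2626 bins elsewhere. Across the 54 bins the number of peaks and of genes had a Spearman correlation of 0.58, and across the 2626 bins one of 0.78, given as a description since bins share the library and its depth.

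**Figure D2:**
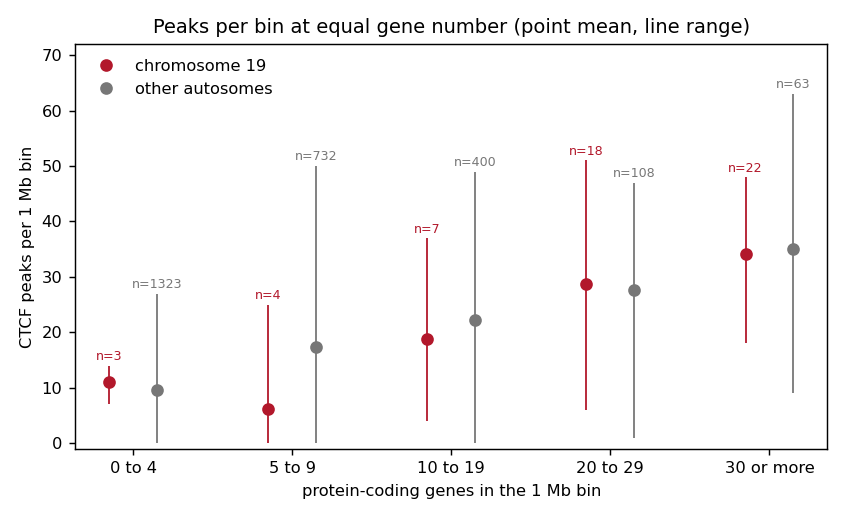
CTCF peaks per 1 Mb bin (vertical axis) by the number of protein-coding genes in the bin (horizontal axis), for chromosome 19 (red) and the other autosomes (grey). Points are means, lines run from the lowest to the highest bin, and n is the number of bins; with 30 or more genes the means are 34.1 and 35.0 peaks.

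The short and the long arm were similarly dense. The short arm, 19p, held 674 peaks, or 27.95 per Mb (25.9 to 30.1), and the long arm, 19q, held 805, or 25.8 per Mb (24.03 to 27.6), so the intervals overlap. These were ranks 1 and 2 of the 39 autosomal arms compared, the short arms of the 5 acrocentric chromosomes being left out. Coding gene density was 25.2 per Mb on 19p and 25.7 on 19q. The arms were divided inside the longest stretch without an annotated gene (chr19:24179012-27681071), and no peak lay near the point of division. The peaks nearest to it were the last of 19p at chr19:21482761-21483109, with 13.8 normalised tags, and the first of 19q at chr19:27379349-27379697, with 9.37. The outermost peaks were at chr19:247113-247461, with 114.3 normalised tags, and at chr19:58606397-58606745, with 21.3.

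Along the chromosome, peaks lay in 2 broad dense blocks with an almost empty region and a sparse one between them. The first 20 Mb held 200, 129, 175 and 166 peaks in successive 5 Mb segments, or 25.8 to 40.5 per Mb. The segment from 20 to 25 Mb held 4 peaks, all between 21 and 22 Mb, or 0.957 per Mb (0.261 to 2.45), although 34 coding genes lie there. From 25 to 35 Mb, on the proximal long arm, density was 16.03 and 16.2 per Mb with 7 and 34 coding genes. It was 21.6, 37.0 and 40.4 per Mb in the next 3 segments, up to 50 Mb. The last 2 segments, up to 58.6 Mb, were sparser again with 23 and 19.96 per Mb in spite of 157 and 135 coding genes. Of these genes, 42 and 60 have a symbol that begins with ZNF and a number, against 5 of 160 in the first 5 Mb. The part of this gene content in the difference was not tested. Thus the gene-rich distal long arm had fewer peaks per Mb than the gene-rich distal short arm, and the intervals of the last segment (15.6 to 25.1) and the first (35.1 to 46.5) do not overlap.

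**Figure D3:**
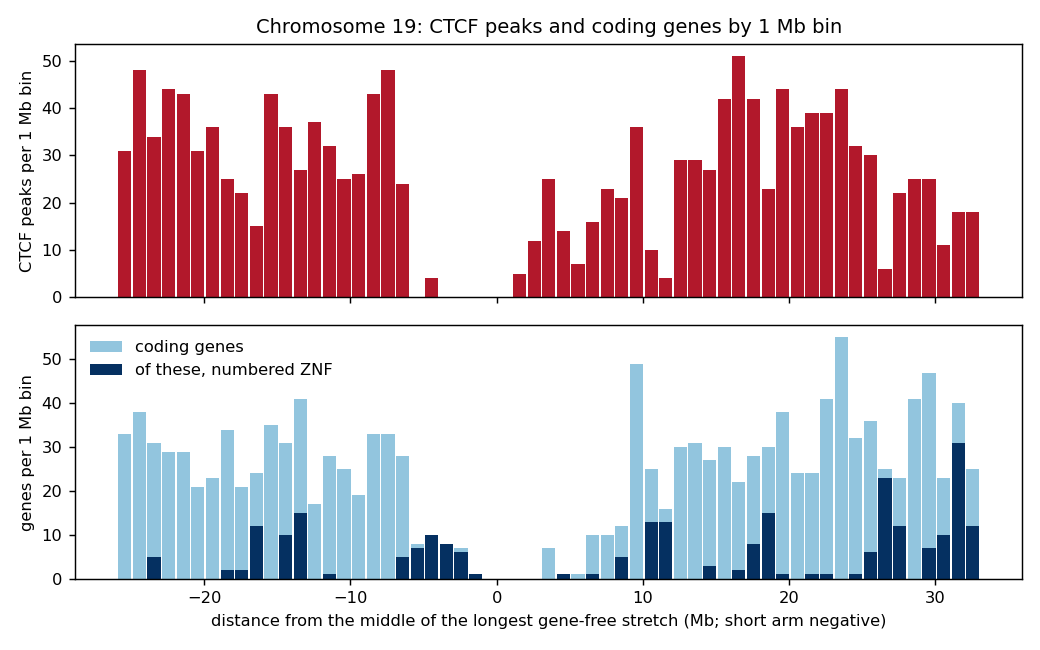
CTCF peaks (top, red) and protein-coding genes (bottom, light blue; numbered zinc finger genes, dark blue) in 1 Mb bins, by distance from the middle of the longest gene-free stretch, in Mb. The fullest bin holds 51 peaks, and the 3 bins with coding genes, at least 900 kb of usable length and no peak hold mostly zinc finger genes.

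The fullest 1 Mb bin, from 42 to 43 Mb, held 51 peaks (37.97 to 67.1) between GRIK5, a kainate receptor subunit gene, and PSG7, a pregnancy-specific glycoprotein gene, with 22 coding genes. The next were the bins from 1 to 2 Mb, from GRIN3B to CSNK1G2, and from 18 to 19 Mb, from ARRDC2 to HOMER3, with 48 peaks each. The 3 emptiest bins with at least 900 kb of usable length held 0 peaks, which allows up to 3.69 by the Poisson bound. They were the bins from 20 to 21 Mb (ZNF682 to ZNF85), from 22 to 23 Mb (ZNF257 to ZNF728) and from 23 to 24 Mb (ZNF730 to ZNF726). Of their 23 coding genes, 21 are numbered zinc finger genes. The 4 peaks of the segment held 8.33, 13.8, 15.4 and 32.5 normalised tags, so 3 of them lay below the chromosome's median of 28.1 and 1 above it. Their median local background was 0.804 normalised tags, against 1.74 for the chromosome. The part of this low background in the low peak number was not tested.

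Zinc finger clusters also made up most of the longest peak-free stretches. Of the 10 longest gaps between neighbouring peaks, 9 held mostly numbered zinc finger genes, and 90 of the 102 coding genes inside the 10 gaps have a symbol that begins with ZNF and a number. Genes of such a cluster are related copies that share sequence, so the placement of reads in them is uncertain, and a count of 0 says only that no peak was called. In the bins and gaps the zinc finger genes are all 250 with such a symbol, readthrough and divergent transcripts included, while the list of 246 used below leaves out symbols with a further suffix. The longest gap, which includes the centromere, was 5.90 Mb and held 20 coding genes from ZNF429 to ZNF254. A gap of 1.08 Mb ran from ZNF682 to ZNF85. A gap of 748 kb held 13 genes, among them ZIM2 and PEG3, an imprinted pair expressed from the paternal copy. The 1 long gap without a coding gene, of 492.5 kb, lay on the proximal long arm (chr19:31549310-32041850). Peak-free intervals with 8 or more coding genes numbered 11 on chromosome 19, with 118 genes, or 8.37% of its coding genes. On the other autosomes there were 34, with 2.38% of their coding genes. Chromosome 19 has 25.5 coding genes per Mb against 6.62 elsewhere, so 8 genes take up less length on it. The part of this gene density in the comparison was not tested. Of the 11, 9 were mostly zinc finger genes. The other two ran from ICAM1, a leukocyte adhesion gene, to TYK2, a cytokine receptor kinase gene (119.1 kb), and from KMT5C, a histone methyltransferase gene, to UBE2S, a ubiquitin ligase partner (78.7 kb). The peaks flanking the 11 intervals held 7.81 to 79.1 normalised tags, with a median of 18.4.

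Peaks of chromosome 19 were often at gene ends, but the excess over the share of length near gene ends was smaller than elsewhere. A share of 22.5% of peaks (333 of 1479, 20.4 to 24.7) lay within 1 kb of either end of a coding gene, the highest of the autosomes, against 12.1% (11.8 to 12.4) on the others together. Stretches within 1 kb of such ends make up 9.08% of the length of chromosome 19 and 2.41% of the others. The share of peaks was 2.48 times that share of length on chromosome 19, the lowest ratio of the 22 autosomes, and 5.02 times on the others together. This ratio also depends on the density of all peaks, so it does not give the share of gene ends that held a peak. On the arms the gene-end share was 23.4% (19p) and 21.7% (19q), with overlapping intervals. Peaks with 2 or more coding genes ending within 1 kb were 18.6% of the gene-end peaks (14.6 to 23.2), against 13.8% elsewhere (12.8 to 14.8), and the intervals overlap slightly.

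Counted by gene, 369 of 1410 coding genes had a peak within 1 kb of an end, or 26.2% (23.9 to 28.55), beside 29.1% of coding genes on all autosomes. The chromosome ranked 19 of 22 in this share. By arm it was 28.7% (25.1 to 32.4) on 19p and 24.3% (21.35 to 27.4) on 19q, with overlapping intervals. Numbered zinc finger genes, 17.4% of its coding genes, had a peak in 41 of 246 (16.7%, 12.2 to 21.9), and its other coding genes in 28.2% (25.6 to 30.9). On the other autosomes the same 2 shares were 33.1% (27.3 to 39.3, 251 genes) and 29.3% (28.6 to 29.95). Zinc finger genes of chromosome 19 thus had a peak less often than those elsewhere, by intervals that do not overlap, while the interval of its other genes includes the share elsewhere. This split was chosen after the values were seen.

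Peaks favoured the start of genes over their other end. Among 1185 coding genes with a known strand, 228 (19.2%, 17.03 to 21.6) had a peak within 1 kb of the annotated 5′ end and 105 (8.86%, 7.30 to 10.6) within 1 kb of the 3′ end. On the other autosomes with promoter entries the shares were 25.2% (24.5 to 25.96) and 6.68% (6.27 to 7.10). Chromosome 19 was therefore lower at 5′ ends and higher at 3′ ends than the rest, in both cases with intervals that do not overlap. Around start sites, 140 peaks lay within 1 kb upstream and 91 within 1 kb downstream, so 60.6% (53.99 to 66.95) were upstream, against 57.3% (55.7 to 58.9) elsewhere. The 75 peaks in the last 250 bp before a start had a median of 29.9 normalised tags. The 37 in the first 250 bp after it had one of 11.2, and the other autosomes showed the same order, 31.5 and 12.35.

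Chromosome 19 peaks were also taller. The median was 28.1 normalised tags (binomial interval of the median 26.5 to 30.2), the highest of the autosomes, against 20 (19.8 to 20.3) on the others together. Individual peaks ran from 7.03 to 233.2. The next medians were 25.8 (23.9 to 27.1) on chromosome 17 and 25.2 (23.2 to 27.1) on chromosome 22. Both intervals overlap that of chromosome 19. Set against the 10 kb around each peak, the median excess on chromosome 19 was 15.6-fold (14.8 to 16.3), also the highest, and 13.4-fold on the others together. Its interval overlaps those of chromosome 22 (15.1-fold, 13.75 to 16.2) and chromosome 16 (14.7-fold, 13.97 to 15.6), the next highest, among others. By arm, the median fold of 19p (14.9) was below those of 16p and 22q (15.1 each). The median local background, the normalised tags divided by that fold, was 1.74 (1.71 to 1.80), likewise the highest, followed by chromosome 3 with 1.73 and chromosome 17 with 1.71. The part of this background in the difference in height was not tested, and no control library is named in the file. Neighbouring peaks were close, at a median of 19.7 kb against 35.4 kb elsewhere, and 75.2% (72.9 to 77.4) had a neighbour within 20 kb. The 10 kb used for the background can hold tags of such neighbours.

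Chromosome 19 held a larger share of strong peaks than of weak ones. Autosomal peaks were split into 10 deciles by the peak caller's score, and the chromosome held 2.74% (2.26 to 3.28) of decile 1, the weakest, 2.88% of decile 6, 5.01% of decile 9 and 7.14% (6.37 to 7.97) of decile 10. A score of 103 or more, reached by the top 10% of the whole list, was found in 303 of its peaks (20.5%, 18.5 to 22.6), against 9.99% on the other autosomes. By arm the share was 23.9% (20.7 to 27.3) on 19p and 17.6% (15.1 to 20.45) on 19q. Chromosome 17 came near, with 17.7% (15.9 to 19.5), an interval that overlaps that of chromosome 19. Its long arm, 17q, had 18.7% (16.65 to 20.85), slightly more than 19q. Within chromosome 19, gene-end peaks were most frequent at both extremes of score: 30.1% in decile 1, 14.3% in decile 6 and 30.5% in decile 10. On the other autosomes the shares were 14.03%, 8.22% and 26.4%, also lowest in decile 6, but higher in decile 10 than in decile 1. In decile 10 their share lies inside the interval of chromosome 19 (25.3 to 36.1).

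**Figure D4:**
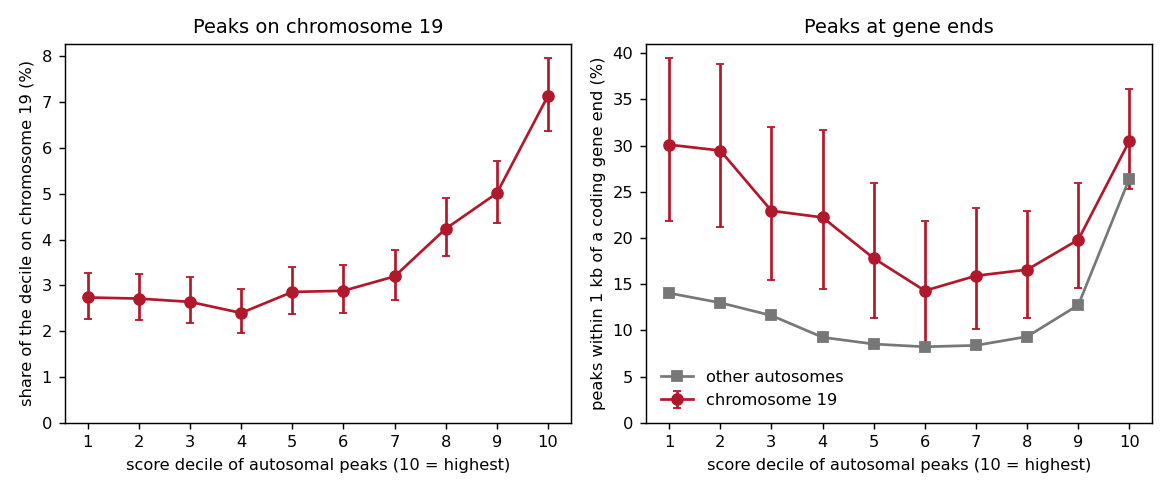
Left, share of each score decile of autosomal peaks that lies on chromosome 19 (%), from the weakest decile (1) to the strongest (10); right, share of peaks within 1 kb of a coding gene end (%) on chromosome 19 (red) and the other autosomes (grey). Bars are Clopper-Pearson 95% intervals. The share on chromosome 19 is 7.14% in decile 10 and 2.40% to 2.88% in deciles 1 to 6.

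Peaks were taller on chromosome 19 at each place relative to genes, both at gene ends and away from them. At gene ends the median was 28.6 normalised tags (24.5 to 34.4) on chromosome 19 and 22.1 (21.1 to 23.2) elsewhere. Inside genes it was 27.6 (24.2 to 29.9) against 19.5 (19.3 to 19.8), and outside genes 29.4 (26.5 to 31.2) against 20.3 (20 to 20.8). At peaks over 20 kb from any coding gene end it was 21.9 (20 to 25.2, 234 peaks) against 18 (17.7 to 18.2). None of these 4 pairs of intervals overlap, but peaks over 20 kb from an end are also counted inside or outside genes. At gene ends the 19q median taken alone, 23.9 (18.5 to 31.0), has an interval that overlaps the one elsewhere. That of 19p, 32.8 (26.3 to 40.6), does not. Beside these heights, the local background at gene ends was 1.89 against 1.87 with overlapping intervals. Inside genes it was 1.81 against 1.48, over 20 kb from an end 1.42 (1.34 to 1.53) against 1.34 (1.33 to 1.34), and outside genes 1.56 against 1.385.

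Between the arms, the median height and the local background were higher on 19p, and the fold over the surroundings was not. The median was 31.2 normalised tags (28.1 to 33.8) on 19p and 26.8 (24.2 to 28.6) on 19q, and the intervals overlap slightly. The local background was 1.85 (1.80 to 1.90) on 19p and 1.67 (1.62 to 1.72) on 19q, with no overlap. The median fold was 14.9 (13.5 to 16.4) on 19p and 15.9 (14.99 to 16.8) on 19q, with overlapping intervals. Over 20 kb from a coding gene end the local background was 1.60 (1.46 to 1.84, 100 peaks) against 1.29 (1.17 to 1.35, 134 peaks). Outside genes, peaks of 19p had a median height of 33.8 (31.0 to 38.5) and those of 19q one of 26.15 (23.4 to 29.2), and these intervals do not overlap. At gene ends the medians were 32.8 (26.3 to 40.6) and 23.9 (18.5 to 31.0), and inside genes 26.8 (22.9 to 31.5) and 27.6 (23.2 to 31.8), both pairs with overlapping intervals. Along the long arm the background was lowest from 25 to 30 Mb, with a median of 1.18, and the median height there was 17.7 normalised tags. The tallest segment was that from 45 to 50 Mb, with 36.05 (31.2 to 42.4) on a background of 1.88, next to 35.05 (27.8 to 44) for the first 5 Mb. The part of the background in these differences was not tested.

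**Figure D5:**
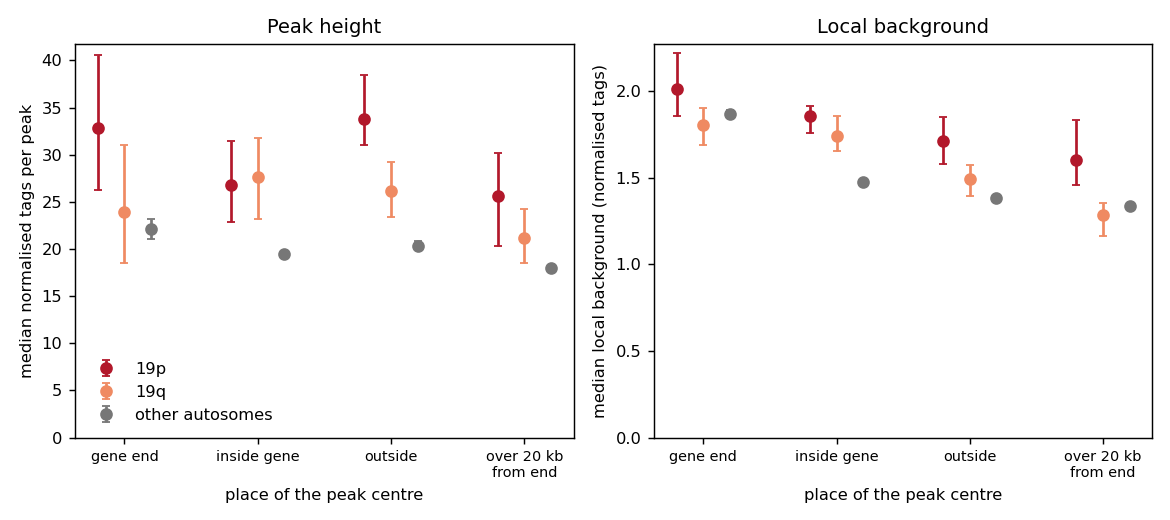
Median normalised tags per peak (left) and median local background in normalised tags (right) on 19p (red), 19q (orange) and the other autosomes (grey), by place of the peak centre relative to coding genes. Bars are 95% binomial intervals of the median; outside genes the 19p median is 33.8, the 19q median 26.15 and the median elsewhere 20.3.

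The strongest single peaks lay at genes of varied function. The highest score belonged to a peak 635 bp outside CCDC106 on 19q (chr19:55653622-55653970), with 233.2 normalised tags (212.1 to 255.8) and a 70.2-fold excess over its surroundings. The second lay 4.69 kb outside CHST8, which encodes a carbohydrate sulfotransferase (chr19:33778025-33778373), with 228.0 (207.1 to 250.4). The third was inside NANOS3, a germ cell RNA-binding protein gene, 470 bp from its end (chr19:13880113-13880461), with 197.5 (177.9 to 218.2). It was the strongest of 19p. The peak near LTBP4, which encodes a binding protein of latent TGF-beta, held 219.4, stood 103.6-fold over its surroundings and had a focus ratio, a measure of how well the tags of both strands point at 1 centre, of 0.953. A peak deep inside POU2F2, a B cell transcription factor gene, held 190.8 22.6 kb from the nearer end. These 5 peaks had local backgrounds of 2.12 to 3.32.

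The next 10 peaks by score held 125.2 to 168.1 normalised tags. On 19p they lay 904 bp from NRTN, which encodes the neurotrophic factor neurturin, 798 bp from KISS1R, the kisspeptin receptor gene, inside TPGS1, a tubulin polyglutamylase subunit gene, 19.8 kb from TCF3, an E protein transcription factor gene, and 4.08 kb from DAND5, a Nodal antagonist gene. The peak beside TCF3 had a focus ratio of 0.689, the lowest of the 15, and the TPGS1 peak the highest background of the 15, 8.38. On 19q they lay inside SARS2, WTIP, SYMPK, which encodes an mRNA 3′ processing scaffold, and ERCC1, an excision repair gene. The first of these was 283 bp from the start of SARS2 and within 1 kb of MRPS12, both genes of mitochondrial translation. The remaining peak lay 49 bp from ZBTB32 and within 1 kb of KMT2B, a histone methyltransferase gene. Of the 15, 9 were on 19q and 6 on 19p, 6 had a coding gene end within 1 kb, and 7 lay inside a gene.

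Gene families of chromosome 19 were then read against the 26.2% of its coding genes with a peak within 1 kb of an end and the 54.4% with one within 5 kb. Zinc finger genes were led by ZNF653 with 114.0 normalised tags, ZNF554 with 99.7 and ZNF616 with 50.0, and ZNF100 had none within 1 kb. The median at the 41 with a peak was 14.3 normalised tags, below the 28.6 of all gene-end peaks on the chromosome. Within 5 kb, 30.1% (24.4 to 36.2) had a peak, still under the 54.4% of all its coding genes.

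The larger immune, protease, cytochrome and olfactory families are given next, with counts within 1 kb of an end first. Leukocyte and killer cell immunoglobulin-like receptor genes had 0 of 17 within 1 kb (Clopper-Pearson bound 19.5%) and 1 of 17 within 5 kb. SIGLEC genes, of sialic acid receptors, had 0 of 11 and 4 of 11 within 5 kb. Kallikrein protease genes had 1 of 15, KLK4 with 20 normalised tags at 69 bp, and 5 of 15 within 5 kb, and KLK1 had none within 1 kb. Of the 12 cytochrome P450 genes, CYP2F1 alone had a peak, of 7.55 normalised tags, near the lowest height on the chromosome, CYP2A13 had none, and 4 of the 12 had one within 5 kb. Olfactory receptor genes had 2 of 20, OR7E24 with 37.2 and OR1I1 with 16.4, OR10H1 had none, and 5 of 20 had one within 5 kb. Inflammasome genes of the NLRP family had 1 of 9, a tall peak of 117.9 (102.8 to 134.0) 406 bp from NLRP12, NLRP11 had none, and 4 of 9 had one within 5 kb. With so few genes, the 1 kb intervals of kallikrein, SIGLEC, P450, olfactory and NLRP genes reach the 26.2% of all coding genes. The 5 kb intervals of kallikrein, SIGLEC, P450 and NLRP genes reach the 54.4% of all coding genes. Those of the olfactory genes (8.66 to 49.1) and the immunoglobulin-like receptor genes (0.149 to 28.7) do not.

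Of the carcinoembryonic and pregnancy-specific glycoprotein genes, 3 of 22 had a peak within 1 kb (13.6%, 2.91 to 34.9): CEACAM1 and PSG7 with 54.1 normalised tags each, and PSG4 with 31.0. Within 5 kb, 16 of 22 had one (72.7%, 49.8 to 89.3), beside 54.4% of all coding genes, and both intervals include the share of all coding genes of the chromosome. A run of 6 peaks, each at most 10 kb from the next, covered 31.5 kb over PSG5 and PSG4 (chr19:43179604-43211131), with heights of 8.07 to 37.7. CEACAM16 had no peak within 1 kb. Tandem copies of 1 gene share much sequence, so reads placed in them are uncertain.

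Other small families were mixed. Gonadotropin beta subunit genes had 3 of 7, and CGB3 had none. CGB1 held 34.4 normalised tags 6 bp before its start, LHB 17.7 and CGB2 16.7. These genes are near-identical copies, so the assignment of reads among them is uncertain. FXYD ion transport regulators had 3 of 4, with 1 peak of 28.6 serving both FXYD1 and FXYD7, FXYD5 at 21.6 and none at FXYD3. Respiratory complex I genes had 3 of 6, led by NDUFB7 with 55.7, then NDUFA7 with 23.9 and NDUFS7 with 12.2, and NDUFA11 had none. Of 5 protein phosphatase 1 regulatory genes, PPP1R37 had a peak of 14.1, and PPP1R12C, whose first intron holds the AAVS1 integration site, had none within 1 kb. No fucosyltransferase gene (0 of 5), interferon lambda gene (0 of 3), galectin gene (0 of 6), apolipoprotein gene of the APOE cluster (0 of 4) or TLE gene (0 of 3) had a peak within 1 kb. FUT1, IFNL1, LGALS13, APOC1 and TLE2 are the alphabetically first of these. Within 5 kb, 3 of the 4 apolipoprotein genes had one.

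Ribosomal protein genes had 5 of 12 (41.7%, 15.2 to 72.3). RPL36 held 120.8 normalised tags (105.7 to 137.3) 97 bp before its start, RPS15 held 69.5 at 110 bp, RPS19 46.6 and RPS28 23.9, the last a peak that also serves NDUFA7. RPL13A had none.

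Growth control and tumour genes had a peak in 13 of 40 (32.5%, 18.6 to 49.1), beside 26.2% of all coding genes of the chromosome. JUND, a component of the AP-1 transcription factor, had the strongest with 82.5 normalised tags (69.9 to 96.1). That peak lay 137 bp from an end and 2065 bp from the nearest start. MLLT1, a fusion partner in leukaemia, had 66.1 at 316 bp, and TGFB1, the growth factor gene, had 68.2 (57.0 to 80.9) at 202 bp before its start. The kinase gene MAP2K7 had 61.4, the capicua repressor gene CIC and the receptor kinase gene AXL 54.9 each, and CEBPA, a differentiation factor gene, 45.3 at 27 bp. The lowest was BAX, the apoptosis effector gene, with 7.55. AKT2, SMARCA4, STK11, KEAP1, DNMT1, NOTCH3 and CCNE1 were among the 27 without a peak within 1 kb, and 27 of the 40 had one within 5 kb (67.5%, 50.9 to 81.4).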

How the data were processed

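The peak list of 1 of 4 samples was used, and the other 3 were not analysed here. The submitters' processing notes list the build hg38 with Bowtie2 and HOMER, without versions. Per the file headers, HOMER findPeaks was run in factor style on this library alone with no control library named. Its settings were an FDR of 0.001, at least 4-fold over the local 10 kb and a local Poisson p-value of 1e-04. The tag signal is the authors' count scaled to 10000000 tags. The deposited focus ratio is a fraction, the deposited score is the caller's own, and the deposited fold and clonal columns are ratios, all used here to describe or rank peaks only. The deposited p-values were not used. At most 1 tag per position was considered in peak finding, per the file headers. Whether the tags given per peak keep that limit is not stated there, and no molecular identifiers are named. Intervals of heights assume independent tags, cover counting error only and may be too narrow.

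Genes came from a RefSeq table of GRCh38.p14. Of its rows, 676 on autosomes carry positions on unlocalised, alternate or patch sequences, 41 of them coding rows of chromosome 19, and were left out. This left 56080 genes, 18973 of them protein-coding. Promoter windows were used for chromosome 19 and 20 other autosomes. Arms were divided at centromere positions of hg38 known beforehand. The library's depth of 19210460 tags served to turn heights back into tags. Intervals are at 95%: exact Poisson for counts, Clopper-Pearson for shares and binomial for medians.

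Members, the 19 gene lists and alternatives were chosen with earlier results of these data known. Genes were named by rule: the nearest coding gene of the 15 highest-scoring peaks, in each list the 3 members with the highest-scoring peaks and the alphabetically first without one, the outer genes of the 3 fullest and emptiest bins, and 8 promoters by score. Some members that the rule would name are not reported here. The comparison by zinc finger genes, the gene-rich gaps, the genes of the longest gaps and the further growth control genes named were picked after their values were seen. Distances were tested on simulated peaks of known place. Alternatives varied score, window, gene set, merging, length, bin size and motif. Software was scipy 1.17.1, pandas 2.3.3, numpy 2.4.6 and, for figures, matplotlib 3.10.9, under Python 3.11.15.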

Additional observations from a re-analysis of the deposited data

How the results depend on the processing

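No paired analysis was possible because only 1 library was used. Of 23 alternatives to the values that answer a comparison, 8 stayed within the counting interval and 15 moved outside it, and those with a score limit or another window count other peaks or genes by construction. Peak density was 25.3 per Mb with blank stretches kept, 16.98 with peaks at or above the median score and 28.8 without the 20 to 25 Mb segment, an alternative added after seeing the data. It stayed the highest of the autosomes in all 3. Peaks per gene were 0.560 over all annotated genes, rank 21 of 22, and 0.667 with peaks at or above the median score, rank 22. The gene-end share was 14.8% with 500 bp, 50.4% with 5 kb and 28.1% over all annotated genes, each the highest. The share of genes with a peak was 16.9% with 500 bp, 54.4% with 5 kb and 15.04% with peaks at or above the median score, ranks 20, 12 and 14, so its low rank depends on the wider window and on the score limit. Without numbered zinc finger genes, added after seeing the data, it was 28.2%, rank 15. Median height was 42.2 at or above the median score and 21.9 over 20 kb from gene ends (added after seeing the data), both the highest. The looser motif was found in 29.1% of windows with a peak and 11.3% without. The local background ranked 3 rather than 1 in these 2 subsets of peaks, with 1.93 and 1.42. Of 19 gene lists, 7 moved outside their interval with a window of 5 kb.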

Other observations

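Long noncoding RNA genes of chromosome 19 had peaks at their ends more often than those elsewhere. Of 478 long noncoding RNA genes, 89 had a peak within 1 kb of an end (18.6%, Clopper-Pearson 15.2 to 22.4). On the other autosomes the share was 14.2% (13.7 to 14.8), and these intervals do not overlap. For coding genes the same shares were 26.2% and 29.3%. All peaks were denser on chromosome 19, with 26.7 per Mb against 15.02 elsewhere, and the part of this density was not tested. A peak counted here can also be counted at a coding gene end. The microRNA genes had one in 11 of 142 (7.75%, 3.93 to 13.4), against 7.45% elsewhere. Pseudogenes had one in 3.53% of 481, against 4.01%. The primate microRNA cluster between MIR512-1 and MIR373, with 50 microRNA genes in 122.1 kb (chr19:53666679-53788773), held 2 peaks, of 41.6 and 24.7 normalised tags. The next peak beyond MIR373, 4.41 kb away, was the NLRP12 peak of 117.9, and the next before MIR512-1, 7.18 kb away, held 10.4.

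Runs of 5 or more peaks, each at most 10 kb from the next, were found at 4 places and held 22 peaks (1.49% of the chromosome's peaks, against 0.979% elsewhere). Besides the run over PSG5 and PSG4, 6 peaks of 7.81 to 77.3 normalised tags lay over ONECUT3 and ATP8B3 on 19p, and 5 of 8.33 to 65.8 over SSBP4. A run of 5 peaks over BEST2, a chloride channel gene, and HOOK2, a microtubule adaptor gene (chr19:12757581-12777926), held 42.7 to 89.5 each. Its median local background was 5.42, against 1.74 on the chromosome, and the 10 kb around each peak can hold the run's other peaks.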
